A study of Mus musculus with 8 samples.

Results

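The mechanosensitive and acid-sensing channels of the dorsal root ganglion, with partners linked to mechanotransduction, were followed after nerve injury and without it. Mice whose non-muscle myosin II genes Myh9 and Myh10 were targeted in sensory neurons were compared with controls. The set was chosen by name and holds 7 genes of the 21878 listed: the Piezo channels Piezo1 and Piezo2, the acid-sensing channels Asic1, Asic2 and Asic3, and the partner genes Stoml3 and Tmem120a. Transcript levels come from paired-end sequencing of RNA from L4/5 ganglia of C57BL/6 mice, taken 3 days after surgery. Of the 4 groups, dKO SNI and dKO sham mice carried loxP-flanked Myh9 and Myh10 alleles with Advillin-Cre, and had undergone sciatic nerve axotomy (called SNI in the sample names) or sham surgery. WT SNI and WT sham mice carried the same floxed alleles without Cre and had the same 2 operations, so the controls are floxed animals and not unmodified ones. Cre follows the Advillin gene of sensory neurons, so glia, vessels and immune cells are meant to keep both myosin genes, which was not tested here. Each group held 2 libraries, 8 in all. Age is not given in the sources used here. No label says that libraries of 1 group stem from different mice, and every p-value therefore rests on a library-to-library spread that may be technical.

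Piezo channels open when the membrane is stretched or indented and let cations into the cell. Piezo2 is the main channel of light touch and proprioception in sensory neurons, whereas Piezo1 is best known from vessel walls, red blood cells and other non-neuronal cells. Acid-sensing channels are proton-gated sodium channels built from 3 subunits, which sensory neurons use to detect tissue acidosis, and Asic3 is the subunit most tied to muscle and deep-tissue pain. Stoml3 is a membrane scaffold protein that makes Piezo channels easier to open. Tmem120a, also called TACAN, was proposed as a pain-related mechanosensitive channel, a role that has been disputed.

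Among the acid-sensing subunits, 3 genes on 3 chromosomes changed together, so the 300 bases around their RefSeq start sites (250 before, 50 after, GRCm38.p6) are shown here. Asic2 has 2 annotated starts, which serve its alternative first exons, and the deposited values do not separate them. The window of Asic1 lies inside the span that GENCODE M21 gives this gene (99670368 to 99701130), not at its outermost start. The lines give Asic1 (chr15:99691974-99692273, plus strand), Asic2 from its inner start (chr11:81152854-81153153, minus strand), Asic2 from its outer start (chr11:81968347-81968646, minus strand) and Asic3 (chr5:24413201-24413500, plus strand), each 5′ to 3′. Capitals mark matches to the motifs searched on both strands.
Asic1: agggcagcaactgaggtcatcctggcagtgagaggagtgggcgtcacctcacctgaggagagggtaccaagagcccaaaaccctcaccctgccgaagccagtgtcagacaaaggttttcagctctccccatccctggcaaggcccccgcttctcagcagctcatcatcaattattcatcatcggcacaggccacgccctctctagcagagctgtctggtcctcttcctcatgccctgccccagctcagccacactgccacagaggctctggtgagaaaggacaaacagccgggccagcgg
Asic2 inner start: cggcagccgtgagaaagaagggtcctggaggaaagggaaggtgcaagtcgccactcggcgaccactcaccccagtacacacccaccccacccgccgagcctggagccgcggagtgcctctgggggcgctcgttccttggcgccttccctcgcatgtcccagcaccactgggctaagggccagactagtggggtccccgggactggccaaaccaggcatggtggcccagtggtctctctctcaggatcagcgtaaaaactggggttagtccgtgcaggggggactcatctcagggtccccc
Asic2 outer start: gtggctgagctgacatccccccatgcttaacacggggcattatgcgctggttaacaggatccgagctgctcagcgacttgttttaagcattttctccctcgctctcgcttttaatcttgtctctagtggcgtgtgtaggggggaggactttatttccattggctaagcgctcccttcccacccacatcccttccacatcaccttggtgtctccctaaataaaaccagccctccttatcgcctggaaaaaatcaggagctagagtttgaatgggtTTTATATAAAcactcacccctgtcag
Asic3: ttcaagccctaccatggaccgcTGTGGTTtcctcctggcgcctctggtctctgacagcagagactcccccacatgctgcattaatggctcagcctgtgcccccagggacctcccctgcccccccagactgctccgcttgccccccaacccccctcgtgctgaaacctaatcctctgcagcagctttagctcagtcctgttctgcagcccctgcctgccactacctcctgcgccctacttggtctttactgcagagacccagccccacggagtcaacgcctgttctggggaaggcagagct
The motifs were TGANTCA, the AP-1 element, which 7.81% of 32851 promoter windows outside 1 chromosome held, TGACGTCA, the cyclic AMP element (1.79%), TATAAA, the TATA box (13.6%), and TGTGGTT, the RUNX element (5.27%). The outer Asic2 start had 2 overlapping TATAAA matches, 1 on each strand, beginning 25 and 29 bases into the transcript, and Asic3 had 1 TGTGGTT match beginning 228 bases before its start. None of these 4 windows held TGANTCA or TGACGTCA. In G and C content they ranged from 49.7% for the outer Asic2 start to 65.3% for the inner one, against a median of 52.7% over all windows.

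In every library the transcripts spread over a wide range of levels per length (FPKM, a fragment count scaled to transcript length and sequencing depth). Averaged over the 8 libraries, Piezo2 stood at 20.7 FPKM, Tmem120a at 13.8, Asic2 at 13.7, Asic3 at 6.86, Asic1 at 6.04, Piezo1 at 1.09 and Stoml3 at 0.0173 FPKM. Asic2 exceeded Asic3 and Asic3 exceeded Asic1 in 8 of 8 libraries. The ranges of Asic3 and Asic1 overlapped in each of the 4 groups, whereas Asic2 lay above Asic3 with no overlap in each group. Tmem120a and Asic2 changed places with the surgery: Asic2 was the higher in the 4 sham libraries and Tmem120a in the 4 SNI libraries. In both dKO SNI libraries Tmem120a also exceeded Piezo2.

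**Figure D1:**
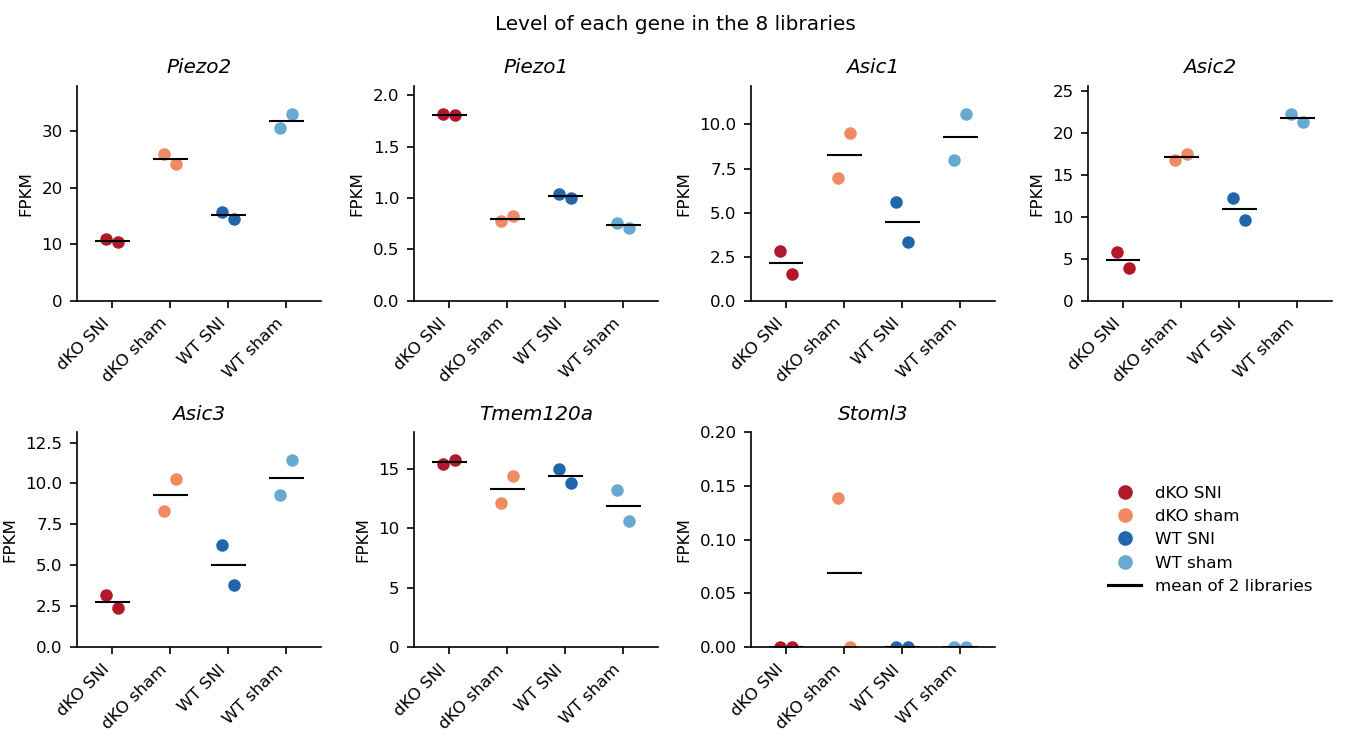
FPKM of each of the 7 genes (y axis, linear, starting at 0 and scaled per panel) in the 4 groups; points are single libraries and lines are means of 2 libraries. Piezo2 and the 3 Asic genes were lower in SNI than in sham libraries of the same genotype, Piezo1 was highest in dKO SNI, and Stoml3 was listed at 0 in 7 of 8 libraries.

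Across the series, FPKM totals per library ran from 278310 to 339920, and the Pearson r of log2(FPKM + 1) between the 2 libraries of a group was 0.984 to 0.989 across genes, which are not independent replicates. Markers of neurons were present: 16 of 16 pan-neuronal markers were measured, none at 0 in any library. Myh10 measured 4.12 to 5.31 FPKM in dKO SNI, 12.2 to 14.4 in dKO sham, 10.4 to 13.8 in WT SNI and 18.1 to 23.5 FPKM in WT sham. Myh9 measured 24.4 to 24.6 FPKM in dKO SNI against 29.7 to 30.8 in WT SNI, and 10.9 to 12.1 FPKM in dKO sham against 27.2 to 31.6 in WT sham. Avil, the Advillin gene, was also lower in dKO. Its level was 34.5 to 44.1 FPKM in dKO SNI against 112 to 143 in WT SNI. In dKO sham it was 75.3 to 80.0 FPKM, against 172 to 180 in WT sham. The summed Y-linked transcripts measured 37.4 to 38.7 FPKM in dKO SNI and 22.7 to 23.2 FPKM in WT sham, but at most 0.0109 FPKM in dKO sham and WT SNI. Each comparison of 2 groups therefore also sets libraries with Y-linked transcripts against libraries without them, and the 2 differences cannot be told apart. This split coincides with the interaction of genotype and surgery. Averages over both levels of the other factor set 1 group with Y-linked transcripts and 1 without on each side, but a residue remains: by limma 2 of 4 Y-linked genes were called higher in each average, Eif2s3y by 0.37 ± 0.09 in both (adjusted p 0.00541 for injury and 0.0208 for genotype) and Ddx3y by 0.35 ± 0.09 in both (0.00745 and 0.0227). Over all genes 29.5% were called higher in the injury average and 11.8% in the genotype average. WT sham 2 stood apart in skeletal muscle transcripts, with Ckm at 138 FPKM against at most 3.17 FPKM elsewhere.

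The first comparison asked how axotomy altered the channels in ganglia with Cre. Piezo2 and the 3 acid-sensing subunits fell and Piezo1 rose. In dKO SNI the level of Piezo2 was 10.9 and 10.3 FPKM, compared with 26.1 and 24.3 FPKM in dKO sham. Asic2, the most abundant subunit, measured 5.83 and 3.93 FPKM in dKO SNI and 16.8 and 17.6 FPKM in dKO sham. Asic1 measured 2.81 and 1.49 FPKM in dKO SNI and 6.95 and 9.54 FPKM in dKO sham. For all 3 genes every SNI library lay below every sham library. Asic3 measured 3.18 and 2.38 FPKM in dKO SNI and 8.32 and 10.3 FPKM in dKO sham, again with no overlap.

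Changes were tested as differences of log2(FPKM + 1), on which low genes appear to change less than they did. The difference (± standard error) was -1.65 ± 0.17 for Asic2, -1.57 ± 0.26 for Asic1, -1.45 ± 0.21 for Asic3 and -1.17 ± 0.12 for Piezo2. Their adjusted p-values by limma with Benjamini-Hochberg adjustment over 12884 genes were 1.56e-04, 0.00130, 6.60e-04 and 1.44e-04. The mean levels in dKO SNI were 0.284, 0.261, 0.299 and 0.421 times those in dKO sham for these 4 genes in the same order. Of the 6 genes that could be tested, 4 were called lower and 1 higher, while 24.6% of all genes tested were called lower, 23.8% higher and 48.4% in either direction. The median change of the 6 was -1.31, and that of all genes was -7.6e-04.

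Piezo1 moved the other way. In dKO SNI its level was 1.82 and 1.80 FPKM, compared with 0.771 and 0.828 FPKM in dKO sham, so the mean in dKO SNI was 2.26 times that in dKO sham. On the log2 scale the rise was 0.64 ± 0.13 (limma, adjusted p 0.00345). Piezo1 passed the filter on low values (at least 1 FPKM in at least 2 libraries) only through SNI libraries, so its place among the tested genes depended on its being high there. Without that filter its adjusted p was 0.00278.

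Tmem120a, the transcript of the disputed channel, measured 15.4 and 15.7 FPKM in dKO SNI and 12.1 and 14.4 FPKM in dKO sham. The SNI libraries were the higher ones, but the difference of 0.22 ± 0.14 (95% interval -0.11 to 0.54) missed the threshold (limma, adjusted p 0.235). Stoml3 was listed at 0 in both dKO SNI libraries, in both WT SNI libraries, in both WT sham libraries and in dKO sham 2, and at 0.139 FPKM in dKO sham 1. It was not tested. An exact 0 in a table without counts can be a failed estimate, so nothing is said here about whether the gene is expressed.

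In ganglia without Cre, 4 channel genes fell after axotomy: Piezo2, Asic1, Asic2 and Asic3. Piezo2 measured 15.8 and 14.5 FPKM in WT SNI, against 30.7 and 33.1 FPKM in WT sham. In WT SNI the level of Asic2 was 12.3 and 9.67 FPKM, and in WT sham it was 22.3 and 21.3 FPKM. Asic3 measured 6.22 and 3.79 FPKM in WT SNI, against 9.29 and 11.4 FPKM in WT sham. For each of the 3 genes the injured libraries were the lower ones, with no overlap. In WT SNI the level of Asic1 was 5.60 and 3.35 FPKM, and in WT sham it was 7.97 and 10.6 FPKM, also without overlap.

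On the log2 scale the difference was -0.94 ± 0.21 for Asic3, -0.94 ± 0.17 for Asic2, -0.93 ± 0.26 for Asic1 and -1.03 ± 0.12 for Piezo2 (limma, adjusted p 0.0128, 0.00549, 0.0317 and 6.96e-04). They were the 4 called of the 6 tested, all lower, while 9.38% of all genes were called lower, 13.6% higher and 23.0% in either direction. The median of the 6 was -0.93 and that of all genes 0.07. Leaving out single libraries ended 2 of the calls. Asic1 stood at an adjusted p of 0.212 without WT SNI 2, 0.190 without WT sham 2 and 0.0543 without WT sham 1, and at 0.0891 without the filter on low values. Asic3 stood at 0.0918 without WT SNI 2 and 0.0935 without WT sham 2.

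In WT SNI the level of Piezo1 was 1.04 and 0.999 FPKM, and in WT sham it was 0.758 and 0.709 FPKM. The groups did not overlap, but the difference of 0.22 ± 0.13 (95% interval -0.07 to 0.51) missed the threshold (limma, adjusted p 0.247), and it was -0.03 after quantile normalization. In WT SNI the level of Tmem120a was 15.0 and 13.8 FPKM, and in WT sham it was 13.2 and 10.6 FPKM, a difference of 0.27 ± 0.14 that did not pass either (adjusted p 0.205).

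Averaged over both genotypes, where each side holds 1 group with Y-linked transcripts, the difference with axotomy was -1.10 ± 0.09 for Piezo2, -1.29 ± 0.12 for Asic2, -1.25 ± 0.18 for Asic1, -1.20 ± 0.15 for Asic3 and 0.43 ± 0.09 for Piezo1. The adjusted p-values by limma were 1.81e-05, 4.56e-05, 4.89e-04, 1.90e-04 and 0.00360. In this average 25.5% of all genes were called lower, 29.5% higher and 55.0% in either direction, so a call by itself was common. The 4 falls kept their calls in all 8 fits that left out 1 library. For Piezo1 the difference was 0.42 to 0.44 in those fits, and its adjusted p by limma was 0.0667 after quantile normalization. Piezo1 passed the filter on low values only through SNI libraries, so its place in this test depended on its being high there. Tmem120a, at 0.24 ± 0.10, did not pass (adjusted p 0.0690), but passed after quantile normalization (0.0347), without WT sham 1 (0.0495) and without dKO sham 2 (0.0451).

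**Figure D2:**
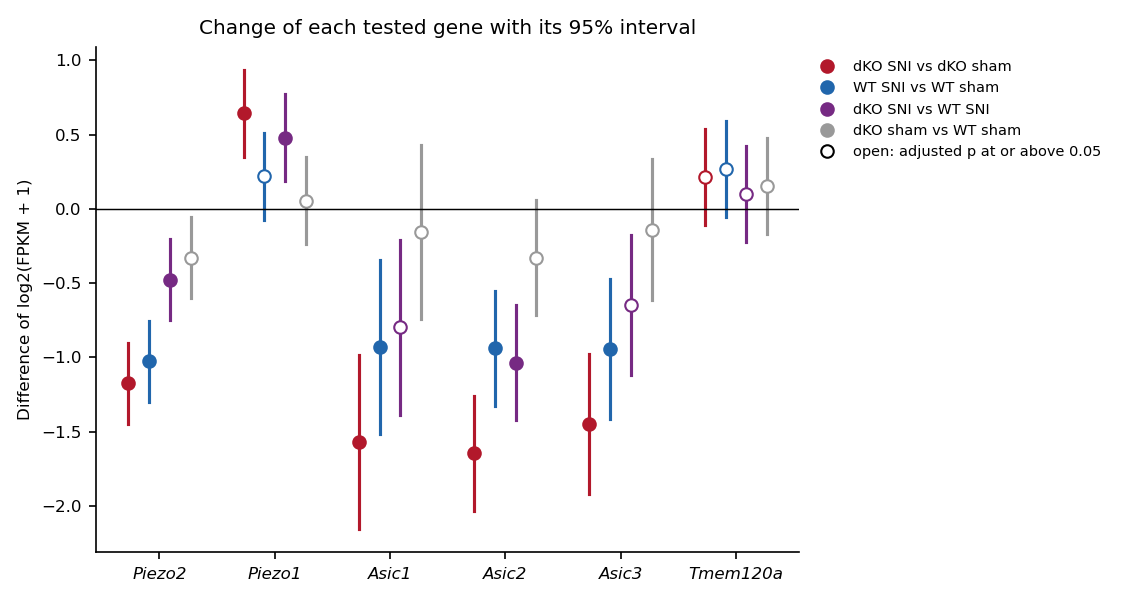
Difference of log2(FPKM + 1) for the 6 tested genes in 4 comparisons (points) with 95% intervals from limma (lines); filled points passed an adjusted p of 0.05. Asic2 and Piezo2 passed in 3 comparisons and none of the 6 genes passed between dKO sham and WT sham.

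The genotype comparison after axotomy asked how the injured ganglia of the 2 genotypes differ. Asic2 averaged 4.88 ± 1.34 FPKM in dKO SNI and 11.0 ± 1.84 FPKM in WT SNI (SD, n = 2 each), a difference of -1.04 ± 0.17 on the log2 scale (limma, adjusted p 0.0104). Piezo2 averaged 10.6 ± 0.40 FPKM in dKO SNI and 15.1 ± 0.89 FPKM in WT SNI, a difference of -0.48 ± 0.12 (adjusted p 0.0239). Piezo1 averaged 1.81 ± 0.01 FPKM in dKO SNI and 1.02 ± 0.03 FPKM in WT SNI. Its difference was 0.48 ± 0.13 (limma, adjusted p 0.0296, and 0.0362 without the filter on low values). It passed that filter only through both dKO SNI libraries and WT SNI 1 (1.04 FPKM). Its place in this test thus depended on its being high in dKO SNI. No library of one genotype reached the range of the other for these genes.

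Asic1 and Asic3 were also lower in both dKO SNI libraries than in both WT SNI libraries, but their differences of -0.80 ± 0.26 and -0.65 ± 0.21 missed the threshold (limma, adjusted p 0.0528 and 0.0517). Both passed with a pseudocount of 0.1 (0.0494 and 0.0473), after quantile normalization (0.0378 and 0.0377) and without WT SNI 2 (0.0298 and 0.0192), and Asic1 also without dKO SNI 1 (0.0289). Relative to each library's mean over the pan-neuronal markers, a scale described below, Asic1 differed by -0.08 ± 0.21 (limma, adjusted p 0.731). On that scale Asic3 changed sign, to 0.07 ± 0.19 (0.740). Tmem120a differed by 0.10 ± 0.14 on the deposited scale (95% interval -0.22 to 0.43, adjusted p 0.619). Of the 6 tested genes 2 were called lower and 1 higher, while 13.4% of all genes were called lower, 10.7% higher and 24.1% in either direction. This comparison rested on single libraries: without WT SNI 1 the number of all genes called was 10 and without dKO SNI 2 it was 9, in place of 3106, and none of the 6 was called. The adjusted p of Asic2 was then 0.0838 and 0.0729, that of Piezo2 0.149 and 0.137, and that of Piezo1 0.127 and 0.145. Piezo1 also lost its call without WT SNI 2 (0.0745), dKO SNI 1 (0.0743), WT sham 1 (0.0538) or WT sham 2 (0.0535).

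After sham surgery none of the 6 genes passed the threshold between the genotypes by limma, and 1, Piezo2, had an unadjusted p under 0.05 (limma across all genes, 0.0226 unadjusted and 0.392 adjusted). The mean of Piezo2 was 25.2 ± 1.27 FPKM in dKO sham against 31.9 ± 1.71 in WT sham (SD, n = 2 each), and its groups did not overlap. Asic2 had a mean of 17.2 ± 0.58 FPKM in dKO sham against 21.8 ± 0.71 in WT sham, also without overlap, with a 95% interval of the log2 difference from -0.72 to 0.06. For Asic1 and Asic3 the sham groups overlapped, with intervals from -0.74 to 0.43 and from -0.61 to 0.33. Only 0.155% of all genes were called in this comparison, and by limma 1397 of 12884 had an unadjusted p under 0.05.

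Averaged over both surgeries, Asic2 and Piezo2 were lower in dKO than in WT, with log2 differences of -0.68 ± 0.12 and -0.40 ± 0.09 (limma, adjusted p 0.0131 and 0.0168). They were the 2 called, both lower, of 6 tested, while 10.4% of all genes were called lower and 22.2% in either direction. Piezo2 lost the call without WT sham 2 (adjusted p 0.0765), WT SNI 1 (0.0634), dKO SNI 2 (0.0567) or dKO sham 2 (0.0561), and the number of all genes called was 416 without dKO sham 2, 427 without WT SNI 1, 506 without WT sham 2, 630 without dKO SNI 2 and 1455 without WT sham 1, against 2866 with all libraries. Asic1 (-0.48 ± 0.18, adjusted p 0.0885), Asic3 (-0.39 ± 0.15, 0.0826), Piezo1 (0.27 ± 0.09, 0.0638) and Tmem120a (0.13 ± 0.10, 0.376) did not pass. Without WT SNI 2, Asic1 (0.0404) and Asic3 (0.0248) passed, Asic1 passed without dKO SNI 1 (0.0409), and Piezo1 passed without the filter on low values (0.0488).

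Whether axotomy acted differently in the 2 genotypes was tested as the interaction, the dKO injury change minus the WT injury change. None of the 6 genes passed (limma, adjusted p 0.281 to 0.933), and 0.0543% of all genes passed. By limma 2 of the 6 had an unadjusted p under 0.05, as did 1863 of all 12884 genes tested. Asic2 had an interaction of -0.71 ± 0.24 (95% interval -1.26 to -0.16, adjusted p 0.281) and Piezo1 of 0.42 ± 0.18 (0.01 to 0.84, 0.336). Piezo1 entered this fit only through both dKO SNI libraries and WT SNI 1, so its place depended on its being high in dKO SNI. For Piezo2 the interaction was -0.15 ± 0.17, with an interval from -0.53 to 0.24. This contrast coincides with the Y-linked split.

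Ratios within a library do not depend on how that library was scaled. The ratio of Piezo2 to Piezo1, on FPKM, was 5.99 and 5.73 in dKO SNI, against 33.8 and 29.3 in dKO sham, and 15.2 and 14.5 in WT SNI, against 40.5 and 46.7 in WT sham. The 4 groups did not overlap in this ratio, and dKO SNI was the lowest. The summed FPKM of the 3 acid-sensing subunits was 11.8 and 7.81 in dKO SNI, against 32.0 and 37.4 in dKO sham, and 24.1 and 16.8 in WT SNI, against 39.6 and 43.3 in WT sham. Its make-up varied much less than its amount: Asic2 supplied 47.0 to 57.5% of the sum over the 8 libraries, Asic3 22.6 to 30.5% and Asic1 19.1 to 25.5%. Asic3 supplied 26.9 and 30.5% in dKO SNI and 26.0 and 27.5% in dKO sham, so the groups overlapped in its share.

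**Figure D3:**
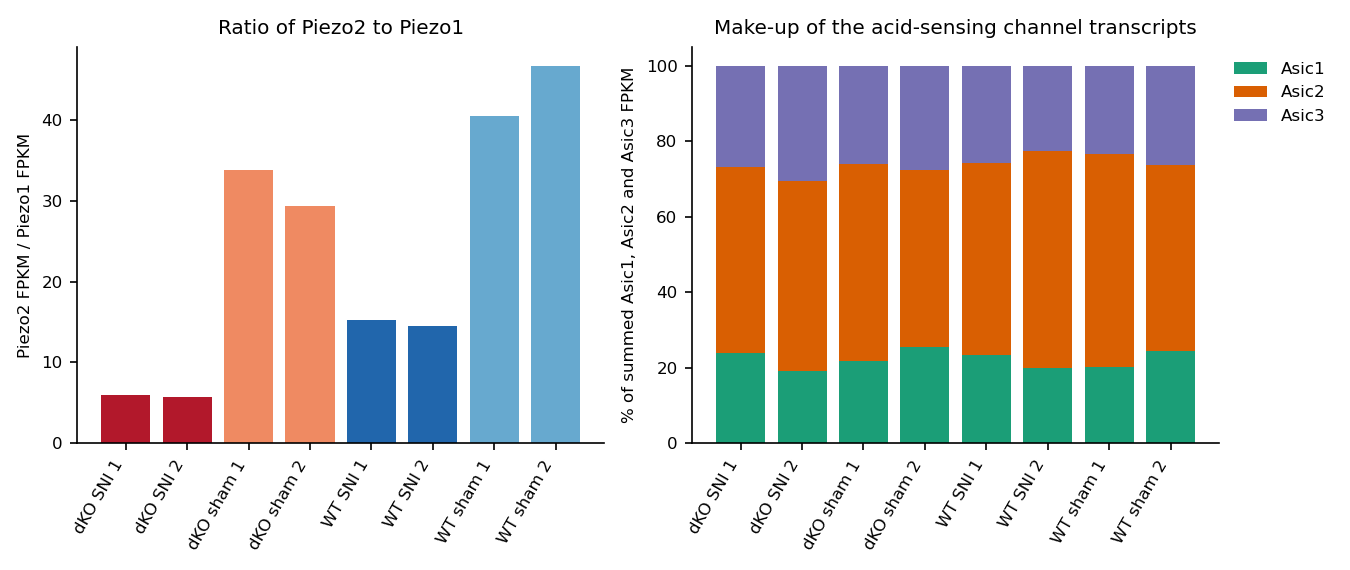
Ratio of Piezo2 to Piezo1 FPKM in each library (left, bars from 0) and share of Asic1, Asic2 and Asic3 in their summed FPKM in each library (right, stacked to 100%). The ratio was 5.99 and 5.73 in dKO SNI and 40.5 and 46.7 in WT sham, while Asic2 stayed between 47.0 and 57.5% of the acid-sensing transcripts.

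In whole ganglia, fewer neurons and less RNA per neuron cannot be told apart, and many, though not all, markers of neurons fell as the channels did. The 16 pan-neuronal markers summed to 3814 to 5293 FPKM in dKO SNI, 7295 to 8058 in dKO sham, 6822 to 8706 in WT SNI and 7963 to 8650 FPKM in WT sham. By limma 11 of 16 were called lower and none higher in dKO SNI against dKO sham (median -0.94), and 6 lower and none higher in WT SNI against WT sham (median -0.48). Over all genes 24.6% were called lower and 23.8% higher in dKO, and 9.38% lower and 13.6% higher in WT. The neuronal transcription factor gene Pou4f1 changed by -1.44 ± 0.15 in dKO and -0.86 ± 0.15 in WT, and the RNA-binding protein gene Rbfox3 by -1.52 ± 0.18 in dKO and -1.01 ± 0.18 in WT. Other markers of the list were higher in both WT SNI libraries than in both WT sham libraries without passing the test, such as the microtubule genes Stmn2 (0.57 ± 0.19, limma, adjusted p 0.0578), Tubb3 (0.45 ± 0.24, 0.197) and Map2 (0.25 ± 0.19, 0.371), which were chosen after their values were seen. Averaged over both genotypes 11 markers were called lower and 1, Stmn2, higher (0.37 ± 0.13, limma, adjusted p 0.0394). In that average 25.5% of all genes were called lower and 29.5% higher. Of 19 markers of low-threshold mechanoreceptors and proprioceptors, the neurons in which Piezo2 is prominent, 13 were called lower and 3 higher in dKO after axotomy (median -0.90) and 8 lower and 1 higher in WT (median -0.54). Of 15 markers of nociceptors and itch neurons 12 were called lower and 0 higher in dKO (median -1.81) and 9 lower and 2 higher in WT (median -1.03). The shares over all genes in dKO and WT given above apply to these lists as well.

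The fit was therefore also read on values relative to each library's mean over the pan-neuronal markers, a scale on which the median of all genes shifted by 0.91 in dKO SNI against dKO sham and by 0.41 in WT SNI against WT sham. On it Piezo2 differed by -0.26 ± 0.16 after axotomy in dKO (limma, adjusted p 0.152) and by -0.68 ± 0.16 in WT (0.0152). Asic2 differed by -0.74 ± 0.16 in dKO (adjusted p 0.00167) and -0.59 ± 0.16 in WT (0.0220). Asic3 differed by -0.54 ± 0.19 in dKO (0.0211) and -0.60 ± 0.19 in WT (0.0393), and Asic1 by -0.66 ± 0.21 in dKO (0.0153) and -0.59 ± 0.21 in WT (0.0613). The genotype differences of Piezo2 changed sign on this scale, to 0.24 ± 0.16 after axotomy (limma, adjusted p 0.198) and 0.03 ± 0.11 averaged over surgeries (0.826). Those of Asic2 did not pass, at -0.32 ± 0.16 (0.0861) and -0.25 ± 0.11 (0.0691). Between the genotypes Asic1 differed by -0.08 ± 0.21 after axotomy (limma, adjusted p 0.731) and -0.04 ± 0.15 averaged over surgeries (0.800). Asic3 changed sign as well, to 0.07 ± 0.19 (0.740) and 0.04 ± 0.13 (0.800). In these comparisons the median of all genes shifted by 0.68 and 0.44, so Piezo2 still lay below the median gene. Piezo1 differed after axotomy by 1.55 ± 0.22 in dKO (limma, adjusted p 2.37e-04) and 0.56 ± 0.22 in WT (0.0763). Tmem120a differed by 1.13 ± 0.20 in dKO (6.18e-04) and 0.61 ± 0.20 in WT (0.0441). All these values are to be read against the shift of the median gene, and Piezo1 entered this fit, too, only through SNI libraries. The markers themselves changed with axotomy, so this scale is no fixed count of neurons, and the share of a change that goes with them was not tested.

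**Figure D4:**
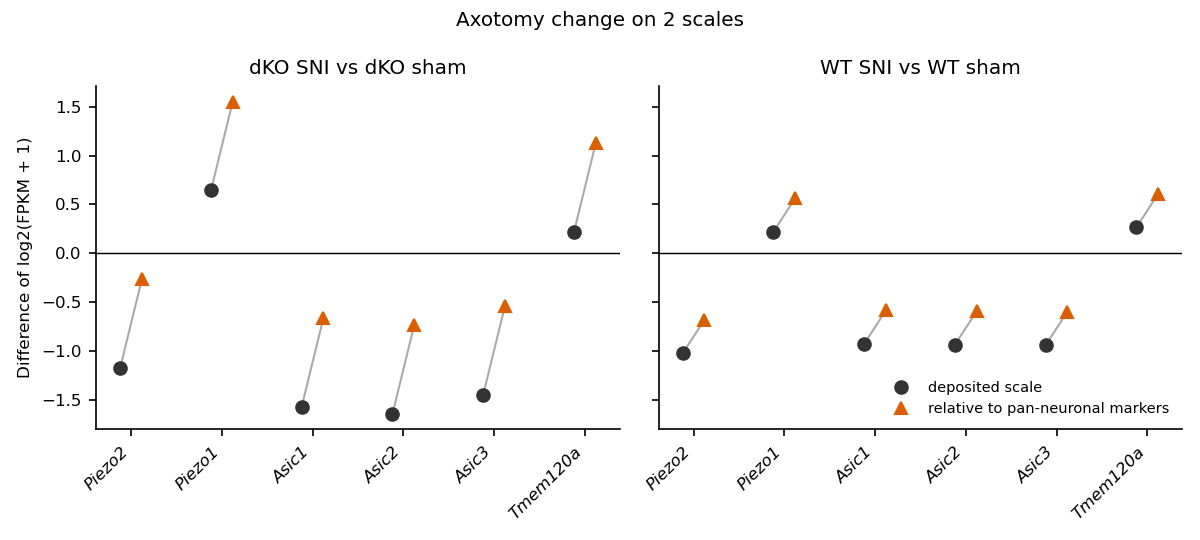
Difference of log2(FPKM + 1) after axotomy for the 6 tested genes in dKO (left) and WT (right), on the deposited scale (circles) and relative to the library's mean over 16 pan-neuronal markers (triangles). Relative to these markers Piezo2 differed by -0.26 in dKO and -0.68 in WT, and the 3 Asic genes by -0.54 to -0.74.

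Some markers of other cell types were also higher where Piezo1 was. The 14 endothelial markers summed to 91.2 to 94.9 FPKM in dKO SNI, 61.0 to 73.8 in dKO sham, 65.0 to 70.2 in WT SNI and 56.2 to 57.4 FPKM in WT sham, with none at 0. By limma 5 of 14 were called higher and none lower in dKO SNI against dKO sham, where 23.8% of all genes were called higher, 2 higher in WT SNI against WT sham (13.6% of all genes) and 2 higher in dKO SNI against WT SNI (10.7%). The 2 of 14 called in each of the latter comparisons are close to the share over all genes. The clotting factor gene Vwf (0.98 ± 0.18) was among the 5 in dKO, and the adhesion molecule gene Pecam1 was called in dKO (0.54 ± 0.15) and in WT (0.55 ± 0.15), where Piezo1 was not. The 14 macrophage markers summed to 953 to 1111 FPKM in dKO SNI, 105 to 160 in dKO sham, 519 to 554 in WT SNI and 73.1 to 92.1 FPKM in WT sham. All 14 were called higher after axotomy in each genotype, WT included, and none was at 0. The 11 fibroblast and pericyte markers summed to 1108 to 1388 FPKM in dKO SNI and 496 to 607 in dKO sham. Their sum was 596 to 903 FPKM in WT SNI and 244 to 344 FPKM in WT sham. By limma 4 of the 11 were called higher after axotomy in dKO and 6 in WT, and none lower. The 8 erythrocyte markers found summed to 3150 to 7831 FPKM in dKO SNI and 2060 to 5290 FPKM in dKO sham. By limma none was called between these groups, and 2 had an unadjusted p under 0.05, as did 7148 of all 12884 genes. In WT SNI (2006 to 5232 FPKM) 2 were called higher against WT sham (1302 to 1378 FPKM). The 14 markers of satellite glia and Schwann cells were mixed. By limma 2 were called higher and 3 lower in dKO SNI against dKO sham (median -0.11), and 3 higher and 0 lower in WT SNI against WT sham. Between dKO SNI and WT SNI 1 was called higher and 1 lower. The shares of all genes called lower in these comparisons were 24.6%, 9.38% and 13.4%. The part of these cell types in the rise of Piezo1 was not tested. Piezo1 also shares 24.6% of its exon bases with Ctu2, a tRNA-modifying enzyme gene on the opposite strand, and whether the reads kept strand is not given. Ctu2 measured 2.21 and 2.45 FPKM in dKO SNI and 2.17 and 2.13 FPKM in dKO sham, a difference of 0.08 ± 0.13 (limma, adjusted p 0.619), where Piezo1 differed by 0.64 ± 0.13. In WT SNI Ctu2 measured 2.73 and 2.50 FPKM, against 2.14 and 2.07 FPKM in WT sham. That difference was 0.22 ± 0.13 (limma, adjusted p 0.228), and Piezo1 differed there by 0.22 ± 0.13. The part of shared reads in the Piezo1 values was not tested.

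Other genes linked to mechanotransduction gave a mixed picture. Of 31 listed, 25 passed the filter on low values, of which 3 were called higher and 11 lower in dKO SNI against dKO sham (median -0.31), 3 higher and 4 lower in WT SNI against WT sham (-0.11), and 1 higher and 7 lower in dKO SNI against WT SNI (-0.24). Over all genes the shares called higher and lower were 23.8% and 24.6% in dKO SNI against dKO sham, 13.6% and 9.38% in WT SNI against WT sham, and 10.7% and 13.4% in dKO SNI against WT SNI. The 3 of 25 called higher in WT are close to the share over all genes. Averaged over both genotypes 6 rose and 10 fell, where 29.5% and 25.5% of all genes did. Stom, a stomatin of the same family as Stoml3, rose by 1.01 ± 0.10 (limma, adjusted p 5.48e-05) and Mdfic, whose protein binds Piezo channels as an auxiliary subunit, by 1.09 ± 0.11 (6.92e-05). Stom measured 38.5 and 36.2 FPKM in dKO SNI, 18.7 and 17.8 in dKO sham, 26.2 and 32.9 in WT SNI and 14.7 and 13.2 FPKM in WT sham. The cation channels Trpa1 (-1.41 ± 0.20) and Trpc6 (-0.66 ± 0.10) fell, as did Tmem150c (-0.64 ± 0.10), also called tentonin 3, a protein linked to slowly adapting mechanical currents. Between dKO SNI and WT SNI the membrane-binding annexin gene Anxa6 (-1.05 ± 0.16, adjusted p 0.00929), Lrrc8a (-0.77 ± 0.17), which encodes a volume-regulated anion channel subunit, and the stretch-gated channel gene Tmem63b (-0.73 ± 0.17) were lower in dKO. In dKO sham against WT sham 0 of the 25 were called by limma, and 5 had an unadjusted p under 0.05, as did 1397 of all 12884 genes.

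Among 20 genes found that sense or carry protons, or regulate such channels, 15 passed the filter, of which 1 rose and 8 fell in dKO SNI against dKO sham (median -0.54), and 1 rose and 3 fell in WT SNI against WT sham (-0.22). The shares over all genes were 23.8% higher and 24.6% lower in dKO, and 13.6% higher and 9.38% lower in WT. Averaged over both genotypes the 2-pore potassium channel genes Kcnk18 (-1.06 ± 0.09), Kcnk3 (-0.66 ± 0.10) and Kcnk1 (-0.77 ± 0.14) fell. So did the heat, capsaicin and acid receptor Trpv1 (-1.18 ± 0.16) and the ubiquitin ligase gene Nedd4l (-1.23 ± 0.12). Gpr65, a proton-sensing receptor of white blood cells, rose by 1.37 ± 0.16 (limma, adjusted p 1.37e-04). The remaining subunit genes of the family were at the bottom of the scale in all groups: Asic4 was listed at 0 to 0.0768 FPKM and Asic5 at 0 to 0.0936 FPKM, and neither was tested.

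The genes whose pattern over the 8 libraries was most like that of each channel were taken by Pearson r of log2(FPKM + 1) among genes averaging at least 5 FPKM, as a description. For Piezo2 they included Osbpl3 and Mcu (r 0.996 each). For Asic1 they were Fam234b, Rnf208 and Tesc (0.997 each), for Asic2 Chn1, Pcyt1b and Car10 (0.997 to 0.998), and for Asic3 Vwa7, Cntnap1 and Myh14 (0.997 each). For Piezo1 they were Git2, Aldh3b1 and Mcemp1 (0.984 to 0.989), and for Tmem120a Zdhhc16, Pold4 and Coq7 (0.954 to 0.963). The points share their libraries and fall into the 4 groups, and no p-value is given.

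All 7 genes are protein-coding in GENCODE M21 on GRCm38. On the minus strand lie Piezo1 (chromosome 8, 122481698 to 122551329), Piezo2 (chromosome 18, 63010213 to 63387183), Asic2 (chromosome 11, 80880169 to 81968457) and Tmem120a (chromosome 5, 135735485 to 135744448). On the plus strand lie Asic1 (chromosome 15, 99670368 to 99701130), Asic3 (chromosome 5, 24413392 to 24417835) and Stoml3 (chromosome 3, 53488653 to 53508502). Asic2 spans 1088289 bases with 4264 bases of merged exon, and Asic3 spans 4444 bases with 2423. Of the 7, Piezo1 was the only gene whose exons overlap those of another annotated gene.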

How the data were processed

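RNA from whole ganglia was sequenced as paired-end TruSeq libraries, per the labels' protocols. The authors deposited 1 table of FPKM values, with 21878 gene symbols and 8 columns, whose names tie each column to 1 sample's labels. Tools named in the submitters' processing notes, with no role or order, are edgeR, StringTie 1.3.0 and HISAT2 2.0.4, and the builds are mm10 and GRCm38.p4. For the annotation, the strand setting and any further scaling the entry is: not given in the sources used here. Read totals are unknown, so no counting error can be attached to a value, and FPKM does not separate isoforms.

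A gene entered the tests when 2 or more libraries reached 1 FPKM (12884 genes). Its log2(FPKM + 1) was fitted with limma 3.58.1 in R 4.3.3 as 4 group means, leaving 4 residual degrees of freedom among the 8 libraries, with a mean-variance trend and two-sided Benjamini-Hochberg adjustment at 0.05. The script was tested on simulated data. A permutation of 2 against 2 libraries cannot reach the threshold and was not used. The members and gene lists were chosen with earlier results of these data known. The named genes are the 7 members, the 3 genes most similar to each, and the called list members with the smallest p, up to 4 (6 for the channel lists), and some of these are not reported here. Replicates were numbered by the labels. Promoter sequences are from RefSeq (GRCm38.p6) and were examined for 6 of the 7 genes. Relative to pan-neuronal markers means after subtracting each library's mean log2(FPKM + 1) over the 16 markers.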

Additional observations from a re-analysis of the deposited data

How the results depend on the processing

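Direction held in nearly all settings, but calls between the genotypes did not. On the scale relative to pan-neuronal markers the Asic3 difference became 0.069 in dKO SNI against WT SNI and 0.039 averaged over both surgeries. Relative to pan-neuronal markers the Piezo2 difference became 0.24 in dKO SNI against WT SNI and 0.029 averaged over both surgeries, and the all-gene counts became 10335 (dKO SNI against dKO sham), 8858 (dKO SNI against WT SNI) and 7831 (genotype averaged), since this scale shifts every gene. Without the filter on low values, which changes how many genes are tested, the counts were 1892 in dKO SNI against WT SNI, 6 in dKO sham against WT sham and 1142 for genotype averaged. Between dKO sham and WT sham the count of 20 became 55 with a pseudocount of 0.1 and 32 with only those 2 groups fitted. Of the 6 channel genes tested, 5 were called in dKO SNI against WT SNI with a pseudocount of 0.1, 5 after quantile normalization and 1 with only the 2 groups fitted, where the full fit called 3. The cause was not tested.

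Leaving out 1 library at a time, all-gene counts ran from 3712 to 6200 in dKO SNI against dKO sham, from 1099 to 3030 in WT SNI against WT sham, from 9 to 3082 in dKO SNI against WT SNI, from 9 to 31 in dKO sham against WT sham, from 416 to 3055 for genotype averaged and from 5 to 20 for the interaction. The channel genes called ran from 2 to 4 in WT SNI against WT sham, from 0 to 4 in dKO SNI against WT SNI and from 1 to 4 for genotype averaged. A group left with 1 library is assumed to vary like the others.

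With the replicate number as a replicate block, 47 genes were called in dKO sham against WT sham and 12 in the interaction, against 20 and 7 without it, and no call of the 6 channel genes changed. Deviations of same-numbered libraries correlated at -0.19 to 0.25 over the 6 pairs of groups, and only 1 of the 6 exceeded 0.1, so the numbers were not taken to pair the libraries. Total reads are not known from FPKM, so the counting error of low genes such as Piezo1 cannot be given.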
